A study of Mus musculus with 9 samples.

Results

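HOX, MEIS and PBX genes encode homeodomain transcription factors, and all genes of these names were followed in 6 MYCN-driven T cell lymphomas and 3 control CD4 T cell samples of the mouse. The genes were taken by symbol: the numbered Hoxa, Hoxb, Hoxc and Hoxd genes, Meis1 to Meis3 and the numbered Pbx genes. They are 46 of the 46078 genes in the deposited table. The 39 HOX genes lie in 4 clusters, with 11 genes in HoxA, 10 in HoxB, 9 in HoxC and 9 in HoxD. The remaining genes are the 3 MEIS and 4 PBX genes, which are scattered over the genome.

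The lymphoma group holds cells of T cell lymphomas induced by MYCN, collected from the thymus of C57BL/6J mice and numbered 34, 53, 56, 70, 72 and 86. The control group holds CD4+ T cells from the spleen of the same strain, numbered 1, 2 and 3 and called CD4 here. The sequencing read transcript 3′ ends. The promoter and cell type that drive MYCN, the age of the animals and whether each sample came from a separate animal are not given in the sources used here, so p-values measure the spread between these samples, which may be technical. Tissue coincides with the groups, and the levels of Ddx3y (119 to 178 CPM in lymphoma, 0.191 to 0.733 in CD4) and Xist (4.65 to 11.2 CPM against 492 to 581) show that sex does too. Neither can be told apart from the lymphoma state.

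Each HOX cluster keeps its genes in the order in which they are used along the body axis of the embryo. Outside the embryo the clusters are known as classic targets of Polycomb group complexes, which hold them silent through histone H3 methylation by EZH1 or EZH2 within Polycomb repressive complex 2 (PRC2), while trithorax proteins such as KMT2A keep them active. In the blood system HoxA and HoxB genes are active in stem and progenitor cells and decline as cells mature, and MEIS and PBX proteins, of the TALE class of homeodomain proteins, bind DNA together with HOX proteins.

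Reads counted in genes numbered 11170704 to 15769679 per lymphoma and 8099960 to 10808828 per CD4 library. CPM are counts per 1000000 of the TMM-scaled gene counts. A count of 0 allows up to 3 counts, which is at most 0.274 CPM in any lymphoma, and such limits cover counting error only. T cell genes were read in both groups: the 12 T cell markers summed to 2872 to 4934 CPM in lymphoma and 3615 to 4075 CPM in CD4, although Cd4 itself had a mean of 35.3 CPM in lymphoma and 240 CPM in CD4. Other cell types differed with the group. All 12 B cell markers were lower in lymphoma (23.0 to 63.9 CPM summed, against 2062 to 2244), as were 7 of 8 plasmacytoid dendritic cell markers (62.8 to 145 against 513 to 589). Of 10 stem and progenitor markers 7 were tested and 3 were lower (1.02 to 14.2 against 28.0 to 30.6), Meis1 being among the 3, with Mecom at 0 in all libraries. Myeloid markers summed to 72.3 to 2296 CPM in lymphoma and 997 to 1204 in CD4, and 5 of 12 were lower. Of 8 megakaryocyte and platelet markers 5 were tested and 2 were lower, Ppbp and Itga2b (1.96 to 9.72 against 7.42 to 12.7). Of 15 stromal and thymic epithelial markers 7 were tested, Dcn and Epcam being higher in lymphoma and Pecam1 and Kdr lower. Their sum of 97.6 to 181 against 220 to 240 was in CD4 mostly Pecam1, at a mean of 64.4 CPM in lymphoma and 193 CPM in CD4, and Foxn1, Krt5, Krt8 and Dcn were at 0 in CD4, Cdh5 in lymphoma and Lum in both. In bulk samples fewer cells of a type and less RNA per cell cannot be told apart.

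The promoters of Hoxa5, Hoxb4 and Hoxd4 are shown first because these genes stand for the patterns found in the data: read in CD4 and almost absent from lymphoma, read in every library, and read in a subset of the lymphomas. Each is the 250 bases before the gene's start in RefSeq (GRCm38.p6), on the strand of the gene, 5′ to 3′, with CG dinucleotides in capitals.
Hoxa5: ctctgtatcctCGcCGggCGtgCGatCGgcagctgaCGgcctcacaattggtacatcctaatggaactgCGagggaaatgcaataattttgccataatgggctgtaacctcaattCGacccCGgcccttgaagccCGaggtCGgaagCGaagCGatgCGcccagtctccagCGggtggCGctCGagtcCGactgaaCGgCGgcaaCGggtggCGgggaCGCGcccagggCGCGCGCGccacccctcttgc
Hoxb4: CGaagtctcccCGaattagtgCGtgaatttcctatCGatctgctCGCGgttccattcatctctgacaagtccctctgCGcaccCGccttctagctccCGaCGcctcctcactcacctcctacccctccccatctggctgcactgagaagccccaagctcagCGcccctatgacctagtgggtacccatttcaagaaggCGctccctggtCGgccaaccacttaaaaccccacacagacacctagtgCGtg
Hoxd4: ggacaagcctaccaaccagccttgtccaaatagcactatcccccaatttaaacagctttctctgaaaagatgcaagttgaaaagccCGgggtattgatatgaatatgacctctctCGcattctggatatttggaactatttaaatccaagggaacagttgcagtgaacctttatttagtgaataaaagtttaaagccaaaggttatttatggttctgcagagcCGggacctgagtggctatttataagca
These windows are chr6:52204588-52204837 on the minus strand for Hoxa5, chr11:96318017-96318266 on the plus strand for Hoxb4 and chr2:74721728-74721977 on the plus strand for Hoxd4, and none overlaps an exon of GENCODE M21. The Hoxa5 window holds 28 CG dinucleotides at a GC content of 63.6%, the Hoxb4 window 14 at 58.0% and the Hoxd4 window 3 at 40.4%. The Hoxd4 window lies at an internal start, inside the gene's GENCODE span of chr2:74711929-74729160, while the other windows abut their gene's edge. The windows are thus of unlike starts, and which start the lymphomas use was not tested. Over the 27025 RefSeq promoters of the same length the median is 6 at a GC content of 52.0%, and over the 22 HOX promoters of that table it is 12 at 56.8%. On either strand, none of the 3 windows holds CACGTG (the MYC E-box, in 6.05% of all promoters), TGACAG (the MEIS site, 16.0%) or TGATNNAT (a PBX and HOX site, 7.91%). CCAAT, present in 34.5% of all promoters, occurs in the Hoxa5 and Hoxd4 windows. A match or its lack describes these letters only.

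Most HOX genes gave no counts or almost none in both groups. Of the 39, 16 had 0 counts in all 9 libraries (against 24.9% of protein-coding genes), among them Hoxa2, Hoxa3, Hoxa13, Hoxb6, Hoxb7, Hoxb8, Hoxc5, Hoxd3, Hoxd9 and Hoxd10. Hoxd3 shares 62.8% of its exon bases with other genes, so its count of 0 may hide reads. A further 10 never exceeded 3 counts. The remaining 13 were detected, taken as more than 3 counts in a library: Hoxa5, Hoxa6, Hoxa7, Hoxa9, Hoxb2, Hoxb3, Hoxb4, Hoxb5, Hoxc4, Hoxc6, Hoxc9, Hoxc11 and Hoxd4. By this rule 46.9% of all genes in the table and 69.5% of protein-coding genes were detected somewhere. Among 84 other developmental regulators known as PRC2 targets the share was 36.9%, and 50.0% had 0 counts throughout.

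Fewer HOX genes were detected per lymphoma than per CD4 library. Lymphomas 34, 53, 56, 70, 72 and 86 had 3, 2, 2, 2, 3 and 2, and CD4 1, 2 and 3 had 5, 9 and 11, without overlap, although the CD4 libraries were the shallower ones. With the threshold set at the depth of the shallowest library the numbers were 2, 2, 1, 2, 2 and 2 against 5, 9 and 9. The separation depended on the threshold: at 1 count or more the numbers were 9, 4, 4, 11, 7 and 6 in the lymphomas and 7, 11 and 12 in CD4, with overlap. Detection of protein-coding genes overlapped between the groups, at 55.2% to 59.4% in lymphoma and 55.2% to 57.9% in CD4. The 84 other PRC2 targets overlapped too, with 13, 9, 9, 7, 8 and 8 detected in the lymphomas and 2, 7 and 11 in CD4.

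**Figure D1:**
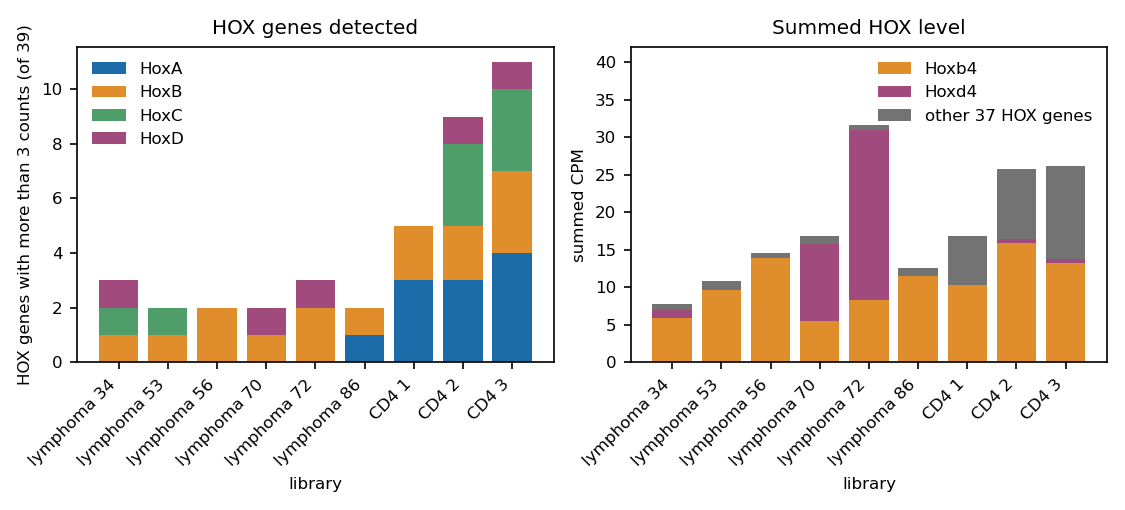
The left bars count the HOX genes with more than 3 counts in each library, stacked by cluster, and the right bars give the summed HOX level in CPM, split into Hoxb4, Hoxd4 and the other 37 genes. Lymphomas have 2 to 3 detected HOX genes and CD4 libraries 5 to 11, while Hoxd4 makes lymphoma 72 the library with the highest summed level.

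Above 3 counts the detected sets were nested. All 6 HOX genes detected in any lymphoma (Hoxa9, Hoxb3, Hoxb4, Hoxc4, Hoxc6 and Hoxd4) were also detected in a CD4 library. Another 7 were detected in CD4 alone: Hoxa5, Hoxa6, Hoxa7, Hoxb2, Hoxb5, Hoxc9 and Hoxc11. Of all genes detected somewhere, 7.5% were of the CD4-only kind and 14.7% were in lymphoma alone, a class without any HOX gene at this threshold. At 1 count or more the sets were not nested: 19 HOX genes had reads in a lymphoma and 16 in a CD4 library, with 7 in lymphoma alone, at no more than 3 counts in a library, and 4 in CD4 alone. The CD4-only set leans on CD4 3, since Hoxa6, Hoxb2, Hoxb5 and Hoxc11 passed 3 counts in that library alone (12.4% of detected genes passed in exactly 1 library). Without CD4 3 the CD4-only set held 3 genes. Hoxa5 and Hoxa7 were the pair detected in every CD4 library and in no lymphoma, as were 0.837% of detected genes. Among the 31 other PRC2 targets that were detected, 10 were so in CD4 alone (32.3%) and 15 in lymphoma alone (48.4%).

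**Figure D2:**
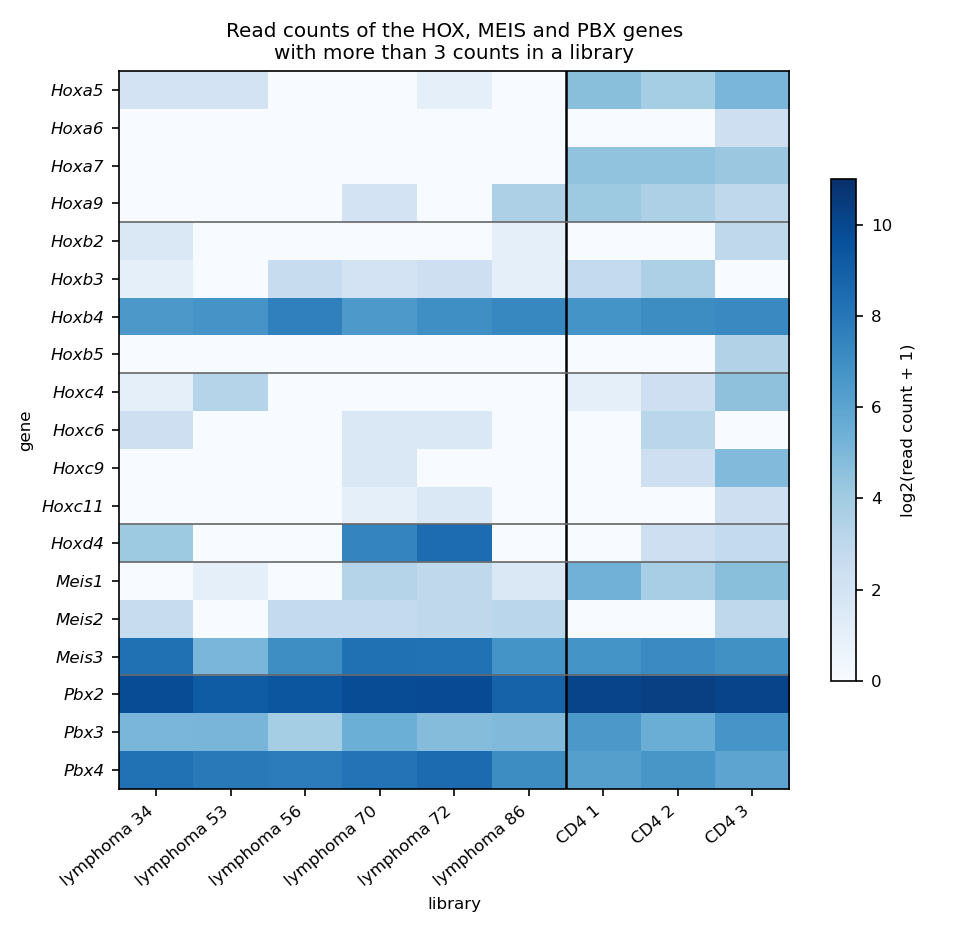
The heat map shows log2(read count + 1) for HOX, MEIS and PBX genes with more than 3 counts in a library, with libraries in columns and the black line between lymphoma and CD4. Hoxa5 and Hoxa7 are darker right of the line, Hoxd4 is darkest in lymphomas 70 and 72, and Hoxb4, Meis3, Pbx2, Pbx3 and Pbx4 have reads in all columns.

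By the differential test, 11 of the 46 genes had enough counts to enter. A gene could enter through libraries of either group or of both. Hoxa5, Hoxa7 and Meis1 entered through CD4 alone, so their inclusion already favoured a difference. Hoxa5, Hoxa7, Meis1, Pbx2 and Pbx3 were lower in lymphoma (5 genes, against 21.9% of all 15401 tested genes) and Pbx4 was higher (1 gene, against 24.7%), by edgeR's quasi-likelihood test at a Benjamini-Hochberg adjusted p under 0.05. Together 46.6% of tested genes passed, and the median log2 fold change over all of them was 0.04. The 5 lower genes lay below CD4 in every lymphoma without overlap, as did 22.3% of tested genes. Their exact two-sided permutation p was 0.0238 each, unadjusted and the smallest that 84 assignments of 6 and 3 libraries allow. Any gene without overlap gets this value, so it restates the lack of overlap and is not a separate test.

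**Figure D3:**
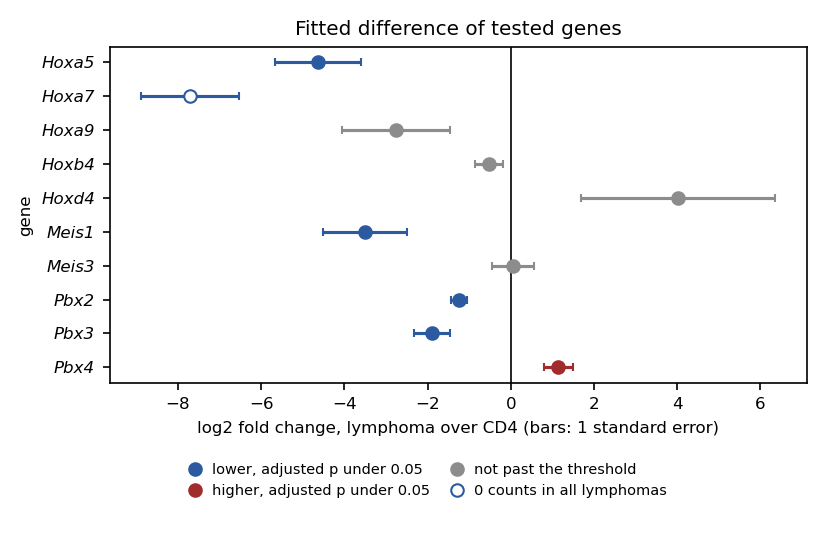
Points are fitted log2 fold changes, lymphoma over CD4, of tested genes and bars are 1 standard error, derived from the test's F statistic. Blue and red mark genes past the threshold and grey the others. The open point is a gene with 0 counts in all lymphomas, whose fitted value and bar depend on the prior count. Hoxa5, Hoxa7, Meis1, Pbx2 and Pbx3 lie left of 0 and Pbx4 right of it, while Hoxd4 has the widest bar.

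Of the 4 clusters, HoxA had the largest ratio between the group means. Its 11 genes summed to 0.258, 0.274, 0, 0.306, 0.0654 and 0.865 CPM in lymphomas 34, 53, 56, 70, 72 and 86, and to 5.81, 6.11 and 5.59 CPM in CD4 1, 2 and 3. The means were 0.295 ± 0.306 (SD, n = 6) and 5.84 ± 0.262 (SD, n = 3), 19.8-fold apart, or 31.8-fold without lymphoma 86. The CD4 libraries were close to each other and all lymphomas were far below them.

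Hoxa5 (ENSMUSG00000038253, chr6:52201754-52204587, minus strand) encodes a HOX factor of the central part of the cluster. It had 3, 3, 0, 0, 1 and 0 counts in the lymphomas and 24, 14 and 33 in CD4. Mean levels were 0.0887 ± 0.118 CPM (SD, n = 6) and 2.33 ± 0.674 CPM (SD, n = 3). The counts summed per group gave a level 29.2 times higher in CD4 (95% exact interval 13.5 to 75.4, counting error only), and the fitted log2 fold change was -4.63 (SE 1.03, adjusted p = 0.00315 by edgeR). No lymphoma came near the lowest CD4 library.

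Hoxa7 (ENSMUSG00000038236, chr6:52214491-52221854, minus strand), the neighbour beyond Hoxa6, showed the difference without any lymphoma count. It had 0 counts in all 6 lymphomas and 21, 21 and 17 in CD4. The CD4 mean of 2.02 ± 0.480 CPM (SD, n = 3) is at least 7.40-fold higher than the largest level that 3 counts would give in any lymphoma, 0.274 CPM (edgeR adjusted p = 0.00163). Of its exon bases, 20.4% are shared with the antisense gene Hoxaas3, and whether counting used strand is not given in the sources used here. Hoxaas3 itself had 1, 1, 3, 0, 3 and 0 counts in lymphoma and 5, 26 and 6 in CD4. Hoxa6, between Hoxa5 and Hoxa7, had 4 counts in CD4 3 and 0 elsewhere.

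Hoxa9 (ENSMUSG00000038227, chr6:52223100-52231089, minus strand), a driver of acute leukaemias when overexpressed, was detected in all CD4 libraries and in 1 lymphoma. Counts were 0, 0, 0, 3, 0 and 11 in the lymphomas and 16, 11 and 7 in CD4. Lymphoma 86, at 0.793 CPM, lay above CD4 3, so the groups overlapped. The fitted log2 fold change of -2.76 ± 1.30 (SE) did not pass (edgeR adjusted p = 0.101), whereas limma voom gave an adjusted p of 0.00895. Lymphoma 86 also had the most counts among lymphomas of Hotairm1, the noncoding gene next to Hoxa2 (chr6:52156902-52162119, plus strand): 0, 0, 2, 0, 0 and 9 in lymphoma and 24, 21 and 36 in CD4. Hotairm1 was lower in lymphoma, with a log2 fold change of -4.27 (SE 1.19, adjusted p = 0.0116 by edgeR).

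HoxB was carried by a gene that did not separate the groups. Hoxb4 (ENSMUSG00000038692, chr11:96318267-96321638, plus strand), known for expanding blood stem cells when overexpressed, was the HOX gene detected in all 9 libraries. Its levels were 5.92, 9.58, 13.9, 5.5, 8.30 and 11.5 CPM in lymphomas 34, 53, 56, 70, 72 and 86, and 10.3, 15.9 and 13.2 CPM in CD4. The means of 9.13 ± 3.27 (SD, n = 6) and 13.1 ± 2.82 (SD, n = 3) overlapped in range, and the log2 fold change of -0.52 ± 0.34 (SE) did not pass (edgeR adjusted p = 0.229). Hoxb4 supplied 766 counts summed over the lymphomas and 385 over CD4, and it stayed readable in lymphomas 53, 56 and 86, where no more than 15 counts came from all other HOX genes.

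The other HoxB genes were near the limit of detection. Hoxb3 had 1, 0, 5, 3, 4 and 1 counts in the lymphomas and 6, 11 and 0 in CD4, with overlap, and 52.9% of its exon bases are shared with the antisense gene Hoxb3os. Hoxb2 had 7 counts in CD4 3, 2 in lymphoma 34 and 1 in lymphoma 86. Hoxb5 had 10 counts in CD4 3 and 0 elsewhere. In the fit without a count filter Hoxb5 passed at an edgeR adjusted p of 0.0479, a call that rests on CD4 3 and was lost when any library except CD4 1 was left out.

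HoxC transcripts varied widely among the CD4 libraries. The cluster summed to 0.0953, 1.92 and 4.95 CPM in CD4 1, 2 and 3, and to a mean of 0.343 ± 0.270 CPM (SD, n = 6) in lymphoma. The ratio of means was 6.76 and fell to 2.92 without CD4 3. CD4 1 lay within the lymphoma range and CD4 3 far above it.

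Hoxc4 had 1, 9, 0, 0, 0 and 0 counts in the lymphomas and 1, 4 and 22 in CD4. Hoxc9 had 2 counts in lymphoma 70, none in the other lymphomas, and 0, 4 and 28 in CD4. Both genes were thus highest in CD4 3. Hoxc6, in contrast, had 8 counts in CD4 2 and 0 in CD4 1 and 3, with 4, 0, 0, 2, 2 and 0 in the lymphomas. Hoxc11 reached 4 counts in CD4 3, with 1 and 2 counts in lymphomas 70 and 72. Without a filter Hoxc9 passed (log2 fold change -4.99 ± 1.56 SE, edgeR adjusted p = 0.0195), and without CD4 3 neither Hoxc9 nor any other gene that had failed the filter did. In that unfiltered fit, 30 of the 46 genes had a value and 8 passed, 7 lower and 1 higher, where 29.0% of 24845 genes passed.

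Among the detected HOX genes, Hoxd4 alone reached its highest level in a lymphoma. Hoxd4 (ENSMUSG00000101174, chr2:74711929-74729160, plus strand), a factor of the hindbrain and upper spine of the embryo, gave 16, 0, 0, 168, 346 and 0 counts (lymphomas 34, 53, 56, 70, 72 and 86 in that order) against 0, 4 and 6 in the CD4 libraries. These are 1.03, 10.3 and 22.6 CPM in lymphomas 34, 70 and 72, and at most 0.55 CPM in CD4. The gene was thus read in 3 lymphomas above every CD4 library and not read in the other 3.

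As a group difference Hoxd4 did not pass. Means were 5.65 ± 9.23 CPM (SD, n = 6) and 0.343 ± 0.299 CPM (SD, n = 3), the log2 fold change was 4.02 (SE 2.34, adjusted p = 0.188 by edgeR) and the exact two-sided permutation p was 0.476. Leaving out lymphoma 34, 70 or 72 took the gene below the filter. In lymphoma 72 Hoxd4 supplied 346 of the 483 HOX counts and in lymphoma 70 it supplied 168 of 274. Of its exon bases 52.3% are shared with Hoxd3, Hoxd3os1 and Gm28230, so its counts are uncertain as to transcript. Hoxd3 itself had 0 counts in all libraries, but 62.8% of its exon bases are shared with other genes, Hoxd4 among them. Reads left ambiguous between genes were 3.74% to 5.96% of all reads per library. Whether Hoxd3 reads are among these was not tested.

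The lymphomas with Hoxd4 reads shared other reads. Haglr, a noncoding gene of the HoxD cluster (chr2:74748422-74762896, minus strand), had 1, 10 and 11 counts in lymphomas 34, 70 and 72 and 0 in the other 6 libraries. Gm14424, within the span of Haglr on the opposite strand, had 5 counts in lymphoma 72. Lymphomas 70 and 72 were the most alike pair of libraries over all tested genes (r = 0.980, across genes, which are not replicates). The most used T cell receptor beta variable segment was Trbv12-1 in lymphomas 34 (66 of 84 segment counts), 70 (45 of 73) and 72 (47 of 87). Lymphomas 53, 56 and 86 had 0 counts of it. Lymphoma 53 had only 9 segment counts in total, and the totals of 56 and 86 were not examined, so these zeros say little. The segment is not particular to these lymphomas, since CD4 1, 2 and 3 had 15, 7 and 7 counts of it. Whether lymphomas 34, 70 and 72 arose independently is not given in the sources used here.

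**Figure D4:**
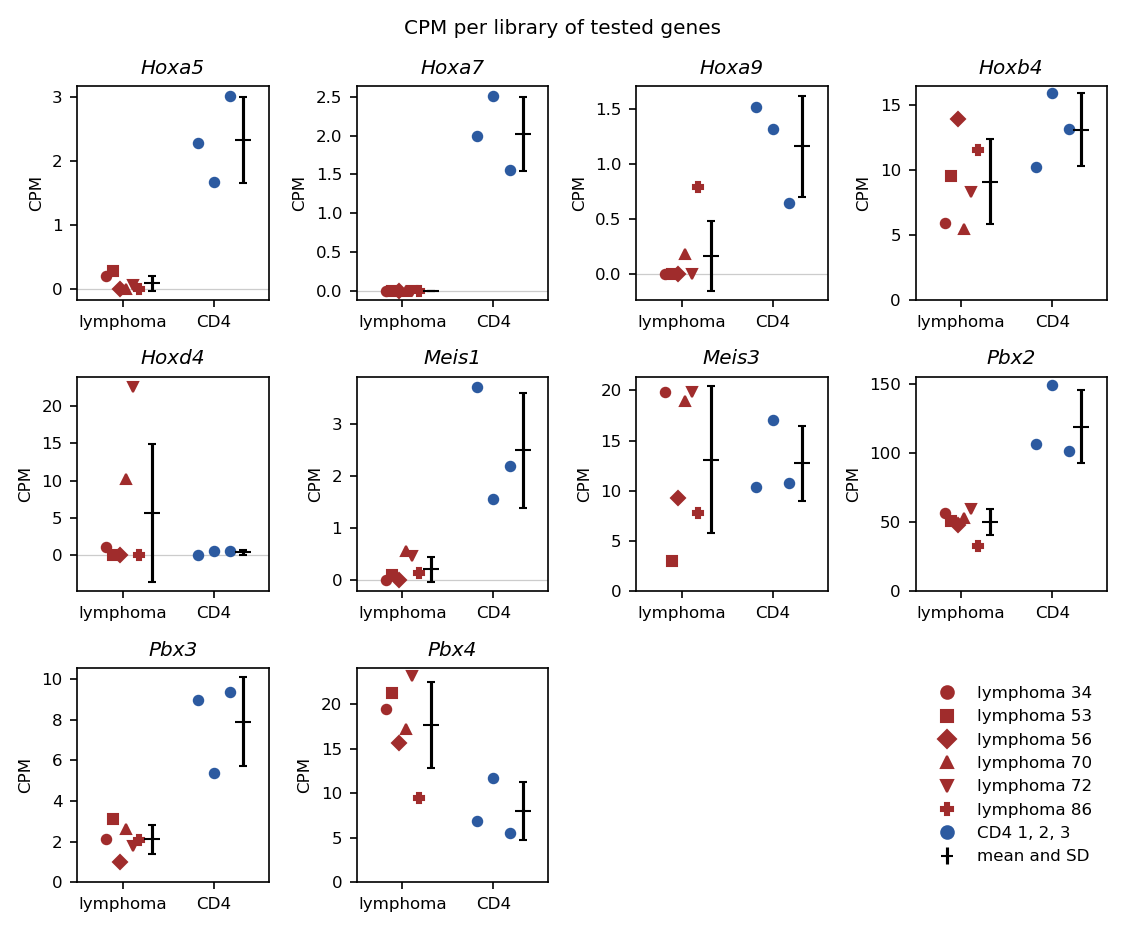
Each panel gives the CPM of 1 tested gene in every library, lymphomas in red with 1 symbol per library and CD4 in blue, with the group mean and SD as black bars and linear axes that differ between panels. Hoxa5, Hoxa7, Meis1, Pbx2 and Pbx3 show no overlap between groups, and the high points of Hoxd4 come from lymphomas 70 and 72.

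Setting Hoxb4 and Hoxd4 aside, the other 37 HOX genes gave 13, 13, 9, 16, 10 and 15 counts in the lymphomas and 69, 78 and 135 in CD4. Hoxb4 and Hoxd4 were the HOX genes with the most counts summed over the lymphomas (766 and 530). Leaving them out was a choice made from these data, and it favours a separation of the groups. The summed level of the other 37 genes was 0.898 ± 0.222 CPM (SD, n = 6) against 9.43 ± 2.90 CPM (SD, n = 3), 10.5-fold apart. With all 39 genes the sums were 15.7 ± 8.37 and 22.9 ± 5.24 CPM and overlapped. All 12 B cell markers and 7 of 8 plasmacytoid dendritic cell markers were also lower in lymphoma. So were 5 of 12 myeloid, 3 of 7 tested progenitor and 2 of 5 tested platelet markers. Meis1 itself is among those progenitor markers, and Cd34 lay higher in lymphoma without passing (log2 fold change 3.37, edgeR adjusted p = 0.0593). The summed levels of myeloid and platelet markers overlapped between the groups. The part of these cell types in the lower HoxA and Meis1 levels was not tested.

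The MEIS genes each had a pattern of their own. Meis1 (ENSMUSG00000020160, chr11:18879817-19018985, minus strand), the partner of HOXA9 in leukaemia and a stem cell factor, had 0, 1, 0, 9, 7 and 2 counts in the lymphomas and 39, 13 and 24 in CD4. Its means were 0.207 ± 0.238 CPM (SD, n = 6) and 2.49 ± 1.11 CPM (SD, n = 3). Summed counts gave a level 11.5 times higher in CD4 (95% exact interval 6.90 to 20.2, counting error only). The log2 fold change was -3.50 (SE 1.02, adjusted p = 0.0141 by edgeR, and 0.0643 without CD4 1). All lymphomas lay below all CD4 libraries, with 70 and 72 the highest of them. Of its exon bases 18.3% are shared with Gm37818 and Gm16140.

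Meis3 (ENSMUSG00000041420, chr7:16175090-16186504, plus strand), a MEIS protein of the same TALE class, was read in every library at 19.8, 3.01, 9.30, 19, 19.8 and 7.79 CPM in lymphomas 34, 53, 56, 70, 72 and 86 and 10.4, 17.0 and 10.8 CPM in CD4. The means, 13.1 ± 7.34 (SD, n = 6) and 12.7 ± 3.71 (SD, n = 3), were close, with a log2 fold change of 0.05 (SE 0.51, adjusted p = 0.948 by edgeR), whose sign turned with the scaling. The spread lay within lymphoma: 34, 70 and 72 stood above all CD4 libraries and 53, 56 and 86 below them. Meis2 had 5, 0, 6, 6, 7 and 8 counts in the lymphomas and 0, 0 and 7 in CD4, too few for the filter. Without it the Meis2 log2 fold change was 0.73 (SE 1.52, adjusted p = 0.726 by edgeR).

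Pbx2, Pbx3 and Pbx4 were detected in every library. PBX proteins are the partners with which many HOX proteins bind DNA. Pbx2 (ENSMUSG00000034673, chr17:34591266-34597400, plus strand), a broadly expressed member, had 56.9, 50.6, 48.0, 53, 59.3 and 32.9 CPM in the lymphomas and 106, 149 and 101 CPM in CD4. The lymphoma mean of 50.1 ± 9.36 (SD, n = 6) was 2.37 times below the CD4 mean of 119 ± 26.2 (SD, n = 3), with a log2 fold change of -1.24 (SE 0.20, adjusted p = 0.000357 by edgeR). No lymphoma reached the lowest CD4 library, and Pbx2 was lower under all 19 alternatives.

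Pbx3 (ENSMUSG00000038718, chr2:34171457-34373142, minus strand), a cofactor of HOXA9 in leukaemia, had 2.12, 3.10, 1.02, 2.63, 1.76 and 2.09 CPM in the lymphomas and 8.96, 5.39 and 9.34 CPM in CD4. Its means of 2.12 ± 0.716 (SD, n = 6) and 7.90 ± 2.18 (SD, n = 3) were 3.72-fold apart, with a log2 fold change of -1.89 (SE 0.42, adjusted p = 0.00317 by edgeR). The groups did not overlap. Pbx4 (ENSMUSG00000031860, chr8:69832491-69872292, plus strand), best known from the testis, went the other way: 19.4, 21.2, 15.7, 17.2, 23.1 and 9.52 CPM in the lymphomas and 6.86, 11.7 and 5.5 CPM in CD4. Lymphoma 86 lay below CD4 2, so the ranges overlapped. The Pbx4 means were 17.7 ± 4.82 (SD, n = 6) and 8.03 ± 3.28 (SD, n = 3), and the log2 fold change was 1.14 (SE 0.35, adjusted p = 0.0178 by edgeR). That call was lost without CD4 1 (adjusted p = 0.0638), without CD4 3 (0.0786) and with lymphomas 34, 70 and 72 averaged into 1 library (0.0522).

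Across the 6 lymphomas, the genes whose log2 CPM followed Pbx2 most closely among the 15401 tested were Alpk3 (Pearson r = 0.999), Capn3 (0.997) and Coro2b (0.988). For Pbx4 they were Ing1 (0.993), Wdr66 (0.992) and St3gal5 (0.989). These values describe the 6 libraries and are the highest of many.

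The regulators of HOX chromatin were examined in the same fit, and the genes named as a list's largest rise or fall all passed the threshold. Of 18 tested HOX activators, trithorax and MLL-fusion partner proteins among them, 7 were higher and 7 lower, with a median log2 fold change of 0.32. Kmt2a, the trithorax methyltransferase that maintains HOX expression, averaged 361 ± 101 CPM over the lymphomas (SD, n = 6) and 986 ± 143 CPM over CD4 (SD, n = 3), a log2 fold change of -1.45 (edgeR adjusted p = 0.000220). Npm1, a nucleolar protein whose mutation goes with high HOX expression in leukaemia, rose the most, by 2.39 on the log2 scale. Of the 14 PRC2 genes 6 were higher and 4 lower (median 0.06). Among the core genes, Ezh2 had 474 ± 36.0 CPM (SD, n = 6) against 112 ± 4.77 CPM (SD, n = 3) and rose by 2.08 (edgeR adjusted p = 7.59e-07). Its paralog Ezh1 fell by 0.94 (adjusted p = 0.000679). Suz12 rose by 0.82 (adjusted p = 0.0433), a call lost in 10 of 12 alternatives (scalings and left-out libraries), and Eed did not pass (0.24, adjusted p = 0.372). The accessory subunit gene Phf19 rose the most, by 4.05, and Phf1 fell the most, by 3.72. Of the 19 genes of Polycomb repressive complex 1, 6 were higher and 2 lower (median 0.04). Cbx2 rose by 2.49 and Cbx7 fell by 1.67 among its chromodomain subunits.

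Partners of HOX and TALE proteins and the remaining gene lists came next. Of the other TALE class genes, the Pknox and Tgif genes were taken as partners, and 2 of these 4 were tested and did not pass: Pknox1 had a log2 fold change of -0.08 (edgeR adjusted p = 0.728) and Tgif1 one of 0.53 (adjusted p = 0.0520, and 0.0332 without lymphoma 53 or 0.0380 without CD4 3, where it passed). Pknox2 had 13 counts in lymphoma 34 and Tgif2 5 counts in CD4 2, each with at most 1 count elsewhere. A further list held 20 genes known from leukaemias driven by HOXA9 and MEIS1 (4 of them also on the progenitor list, Flt3, Kit, Cd34 and Mecom). Of these, 15 were tested, 3 were higher and 8 lower, and their median was -2.53. Over all tested genes 24.7% were higher and 21.9% lower, with a median of 0.04. B cell and most plasmacytoid dendritic cell markers were lower in lymphoma too, and the part of such cells in this list's falls was not tested. Gfi1, a repressor active in thymocytes, rose by 4.36 and Eya1, a phosphatase and transcriptional coactivator, fell by 7.46. Of the other 84 PRC2 targets 4 were tested and 1 passed: Tbx3 rose by 5.04, a call lost without CD4 1 or CD4 2. Its levels of 5.02, 0, 3.20, 20.4, 21.8 and 2.23 CPM in lymphomas 34, 53, 56, 70, 72 and 86 were, like those of Hoxd4, highest in 70 and 72. Of the antisense, noncoding and flanking genes of the clusters 8 were tested, 2 were higher and 2 lower (median -0.13), with Mtx2, the coding gene next to HoxD, rising by 2.24 and Hotairm1 falling the most.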

How the data were processed

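The deposited table holds a raw read count per Ensembl gene and library, per the file headers. The submitters' processing notes name FastQC, HISAT2, SAMtools and HTSeq and the builds GRCm38 and mm10, with no versions; the annotation release and strand setting are not given in the sources used here. The table has 5 closing summary rows, which entered neither the library sizes nor the tests; gene reads were 38.7% to 49.1% of all reads per lymphoma and 27.8% to 35.0% per CD4 library. Columns without a matching sample numbered 0.

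Counts were tested with edgeR 4.0.16 (limma 3.58.1, R 4.3.3): filterByExpr with a minimum count of 10, TMM scaling, robust quasi-likelihood fit of all 9 libraries with no covariate, and Benjamini-Hochberg adjustment over the 15401 genes kept, at a threshold of 0.05. Fold changes are lymphoma over CD4. Genes below the filter took their values from the same fit on all 24845 genes with a count. The filtered edgeR fit was tested on simulated counts of genes that pass the filter, with the same dispersion for all genes. The unfiltered, DESeq2 and limma voom fits were not tested this way. Exact permutation tests of mean CPM were made for 16 of the 46 genes, two-sided and unadjusted, with scipy 1.17.1, which also gave exact 95% intervals.

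Coordinates and exon overlaps came from GENCODE M21 (GRCm38), matched by Ensembl ID, and promoters from RefSeq (GRCm38.p6), where 27 of the 46 genes were matched by symbol. Alternatives were RLE, upper quartile and library size scaling, other filters, DESeq2 1.42.0, limma voom, a threshold of 0.01, averaged alike lymphomas and leaving out each library.

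The genes, lists, tests and naming rule were chosen with earlier results of these data known. Named were all HOX, MEIS and PBX genes with more than 3 counts in a library, each list's largest rise and fall past the threshold, the Pknox and Tgif genes, Ezh2, Ezh1, Suz12 and Eed, and the 3 genes most correlated over the lymphomas with each passing gene of at least 10 CPM. Cd4, the other named cell type markers, Haglr, Gm14424, Hoxaas3, Ddx3y, Xist and the genes of the closing observations were named outside that rule, after their values were seen. Some genes that these rules would name are not reported here. Men1 and Cd28 each have a second row at 0 counts.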

Additional observations from a re-analysis of the deposited data

Results flagged for a closer look

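Of 26 levels examined over the 6 lymphomas, 4 had a highest or lowest library set apart from the rest by Dixon's test at the 95% level. For independent normal values about 1 in 20, or 1.3, would be flagged by chance. Several of these levels rest on few counts and some are sums of others, so 1.3 is no firm expectation here. Lymphoma 86 stood apart for Hoxa9 at 0.793 CPM and for the HoxA sum at 0.865 CPM, which share the same Hoxa9 counts. Lymphoma 53 stood apart for Hoxc4 at 0.821 CPM, from 9 counts. Lymphoma 70 stood apart for Hoxc9 at 0.122 CPM, which is 2 counts and below the limit that a count of 0 allows.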

How the results depend on the processing

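Hoxa5, Hoxa7, Pbx2 and Pbx3 stayed lower in lymphoma and past an adjusted p of 0.05 in each alternative that kept them. Hoxa5 and Hoxa7 entered through CD4 and had at most 3 counts in any lymphoma, so for them these alternatives were a weak check. Of the HOX, MEIS and PBX genes, 0 were called higher, not 1, with lymphomas 34, 70 and 72 averaged, at an adjusted p under 0.01 and in the lowest of the fits without 1 library (0 to 1, lost without CD4 1 or CD4 3). The number called lower was 2, not 5, where at least 10 counts in every library were required, because Hoxa5, Hoxa7 and Meis1 then leave the test, and 4 to 6 with 1 library left out. Among the genes below the filter, the unfiltered fit called 0 to 2 with 1 library left out. The sign of Meis3 turned with RLE (-0.011), upper quartile (-0.051), 10 counts in every library (-0.0068), DESeq2 (-0.012), limma voom (-0.076), lymphomas 34, 70 and 72 averaged (-0.32) or 56 and 86 as well (-0.27), and ranged from -0.11 to 0.32 with 1 library left out. Pknox1 ranged from -0.17 to 0.018 with 1 library left out, turning without lymphoma 34 or CD4 2; neither gene passed in any of these, and the cause was not tested. HOX genes detected in a lymphoma numbered 19 at 1 count or more and 3 above 10 counts, and those in a CD4 library 16 and 7, so that at 1 count the order of the groups turned. Those in every CD4 library and no lymphoma numbered 1 at 1 count or more, since Hoxa5 has reads in lymphomas. The HoxA difference was -5.84 CPM with upper quartile scaling and -5.54 with TMM. Most HOX genes lie below 3 counts per library, where differences were not detectable at this depth. No paired analysis was possible because the groups share no replicate numbers.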

Other observations

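The HOX clusters span 46 other annotated genes, mostly noncoding, of which 9 had more than 3 counts in a library. In HoxA, 5 such genes were read. Gm27477 (chr6:52162125-52162267, plus strand) is annotated as a miscellaneous RNA, starting just past the end of Hotairm1 on the same strand. It had 3 counts in lymphoma 34, 0 in the other lymphomas and 30, 33 and 19 in CD4. Its log2 fold change was -6.02 (SE 1.09, adjusted p = 0.000811 by edgeR). Whether its reads come from the Hotairm1 transcript was not tested, so the falls of Gm27477 and Hotairm1 may be the same result. Gm15050, antisense within the cluster (chr6:52172881-52174059, plus strand), had 1 count in lymphoma 53 and 0, 16 and 26 in CD4, and failed the count filter. In HoxB, Gm11539, a processed pseudogene (chr11:96248633-96249189, plus strand), averaged 60.7 ± 19.2 CPM over the lymphomas (SD, n = 6) and 30.5 ± 8.18 CPM over CD4 (SD, n = 3), with a log2 fold change of 0.99 (SE 0.28, adjusted p = 0.0111 by edgeR). Its reads may be shared with its parent gene, so the value is uncertain. In HoxC none of 7 other genes passed 3 counts.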
